A study of Homo sapiens with 8 samples.

Results

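The 10 genes described here encode integrin subunits and other adhesion molecules with which plasma cells hold on to the bone marrow. They are ITGA4, ITGB1, ITGB7, ITGAL and ITGB2 (integrin subunits), ICAM1, ICAM2 and ICAM3 (integrin ligands), CD44 (a hyaluronan receptor) and SELPLG (the selectin ligand PSGL-1). They were taken by gene symbol, and each matched 1 of the 63129 genes in the deposited table. Of the 10, 9 were among the 14732 genes that reached a mean of 1 RPKM (reads per kilobase of gene, scaled to each library's mapped reads) over the 8 libraries and were tested. ITGB2 was the exception.

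RNA sequencing was carried out on LP-1, a human multiple myeloma cell line, after 6 hr with a bromodomain inhibitor or its vehicle DMSO. In the first experiment, 2 libraries from cells given 2.5 μM SGC-CBP30, which targets the bromodomains of CBP and EP300, stand beside 2 DMSO libraries. In the second, 2 libraries from cells given 250 nM CPI203, which targets the bromodomains of the BET family, stand beside 2 other DMSO libraries. The library numbers in the labels fall into 2 series, and each DMSO pair was assigned to the compound of its own series. All 4 groups were 5 mL cultures of LP-1 cells in IMDM with fetal bovine serum, with no stromal or endothelial cells named in the labels. The libraries were described as biological replicates. The estimated depth was 26000000 to 50200000 reads per library, highest in both SGC-CBP30 libraries. All 8 plasma cell markers examined were expressed, between 19.5 and 1920 RPKM, and none of 6 T cell, 6 monocyte or macrophage and 7 stromal or endothelial markers reached 1 RPKM in any library. Of the 7, PECAM1 was read from an entry on a patch sequence and listed at 0, which says little about that gene. The summed level of the plasma cell markers was 2620 to 2655 RPKM in DMSO and 2152 to 2176 with SGC-CBP30, and 3071 to 3197 in DMSO and 2269 to 2311 with CPI203. Most of each sum was IGJ, and the markers did not all fall. With CPI203 only PRDM1 was higher (log2 fold change 0.36, limma adjusted p = 6.74e-05). The other markers had negative values, from -0.17 for IRF4 to -2.40 for TNFRSF17. With SGC-CBP30 only SDC1 had a positive value, which did not pass (0.14, limma adjusted p = 0.166). The others ran from -0.13 for CD38 to -1.36 for IRF4. The part of these markers in the results was not tested. In bulk RNA, fewer cells carrying a transcript and less of it per cell cannot be told apart.

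Integrins are pairs of an α and a β chain. ITGA4 pairs with ITGB1 to form VLA-4, the receptor for VCAM1 and fibronectin, or with ITGB7 to form the receptor for MAdCAM-1. ITGAL pairs with ITGB2 to form LFA-1, which binds the ICAM proteins. In myeloma, VLA-4, CD44 and PSGL-1 are known for homing to the marrow and for adhesion to stroma, which protects the cells from drugs.

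Among these genes ITGB7 was by far the most abundant and ITGB2 was barely detected. With DMSO in the SGC-CBP30 experiment the mean level of ITGB7 was 558 ± 27.0 RPKM (SD, n = 2), followed by SELPLG at 66.7 ± 3.23, CD44 at 49.3 ± 0.128 and ITGA4 at 46.2 ± 2.24. ITGB1 at 42.3 ± 1.19 and ICAM1 at 42.3 ± 2.41 RPKM overlapped library by library, and below them came ICAM2 at 29.5 ± 0.576, ICAM3 at 2.90 ± 0.161 and ITGAL at 1.74 ± 0.449. No other neighbours in that order overlapped in their libraries. With DMSO in the CPI203 experiment the order from the top was ITGB7, SELPLG, ITGA4 and ITGB1, and then ICAM1, ICAM2 and CD44, whose libraries overlapped.

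**Figure D1:**
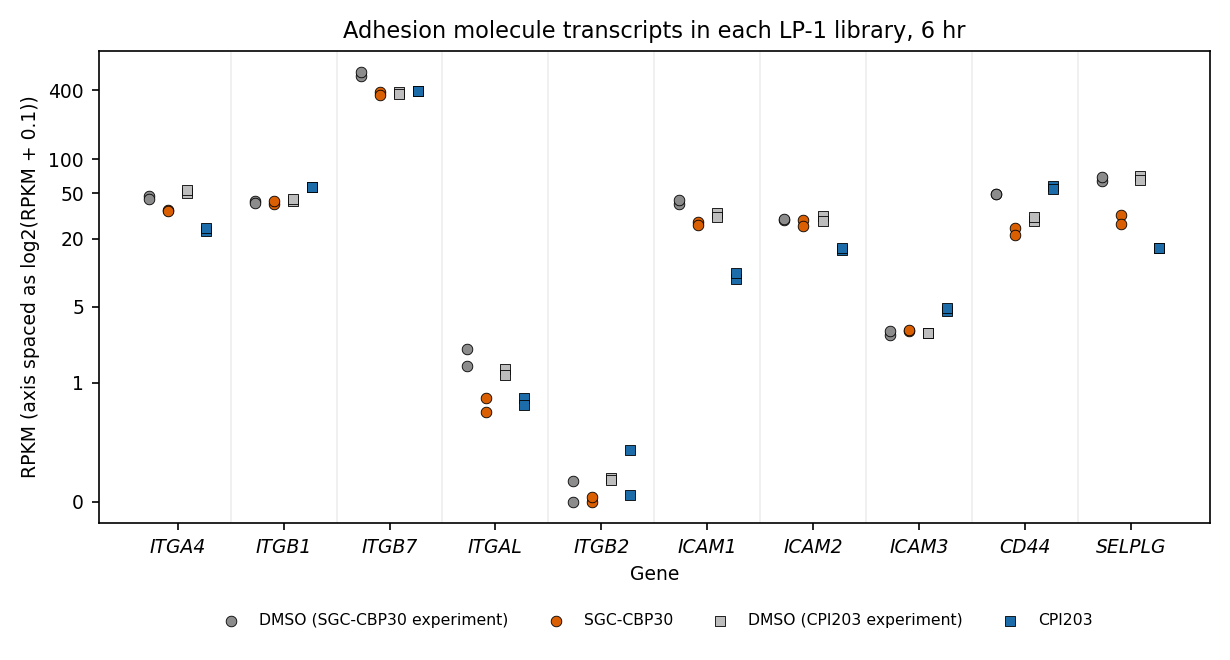
RPKM of the 10 adhesion genes (horizontal axis) in each of the 8 libraries; the vertical axis is spaced as log2(RPKM + 0.1), each point is 1 library and the colours mark the 4 groups. ITGB7 lies between 361 and 577 RPKM in every library, ITGB2 never exceeds 0.181 RPKM, and SELPLG is lower in both treated groups than in either DMSO group.

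For 6 of the 10 genes the RefSeq table used here holds promoter sequences (build GRCh38.p14, from 250 bases before to 50 after the start). Of these, 4 are shown because the results turn on them: ICAM1 fell with both compounds, CD44 moved in opposite directions, ITGA4 fell with CPI203, and ITGB7 is the most abundant. ICAM1 is at chr19:10270870-10271169 on the plus strand, CD44 at chr11:35138921-35139220 on the plus strand, ITGA4 at chr2:181457136-181457435 on the plus strand and ITGB7 at chr12:53207202-53207501 on the minus strand. Sequences run 5′ to 3′ along the gene, and capitals mark letters that match a motif searched.
ICAM1: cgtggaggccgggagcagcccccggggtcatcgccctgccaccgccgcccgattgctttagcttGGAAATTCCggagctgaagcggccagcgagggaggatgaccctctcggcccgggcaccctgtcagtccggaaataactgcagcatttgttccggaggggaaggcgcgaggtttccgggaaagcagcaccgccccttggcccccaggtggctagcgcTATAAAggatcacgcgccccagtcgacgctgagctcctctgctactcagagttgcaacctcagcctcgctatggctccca
CD44: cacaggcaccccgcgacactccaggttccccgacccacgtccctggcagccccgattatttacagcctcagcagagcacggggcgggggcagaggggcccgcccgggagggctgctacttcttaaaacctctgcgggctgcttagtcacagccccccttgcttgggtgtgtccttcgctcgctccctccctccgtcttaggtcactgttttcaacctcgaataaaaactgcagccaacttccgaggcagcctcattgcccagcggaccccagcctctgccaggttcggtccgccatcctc
ITGA4: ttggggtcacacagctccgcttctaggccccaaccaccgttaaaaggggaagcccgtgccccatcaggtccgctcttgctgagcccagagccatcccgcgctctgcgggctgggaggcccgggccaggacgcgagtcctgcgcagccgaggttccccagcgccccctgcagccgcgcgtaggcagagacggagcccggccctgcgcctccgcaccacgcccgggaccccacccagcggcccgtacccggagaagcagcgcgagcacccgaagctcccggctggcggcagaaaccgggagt
ITGB7: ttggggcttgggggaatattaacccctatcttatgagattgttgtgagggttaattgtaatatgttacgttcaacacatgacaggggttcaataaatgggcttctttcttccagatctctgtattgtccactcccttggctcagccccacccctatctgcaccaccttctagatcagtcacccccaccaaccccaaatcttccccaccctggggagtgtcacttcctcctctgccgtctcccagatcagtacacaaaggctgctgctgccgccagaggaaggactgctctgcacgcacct
Capitals appear only in ICAM1. Its GGAAATTCC, from base -186 to base -178 relative to the start, matches the κB motif GGANNTTCC, and its TATAAA lies from base -30 to base -25. Of 35116 promoters in the table, 4.56% hold that κB motif and 11.5% hold TATAAA. Also searched on both strands were the interferon response motif GAAANNGAA (8.11% of promoters), the ETS-IRF motif GGAANNGAA (7.79%), the AP-1 motif TGANTCA (7.71%), the E-box CACGTG (7.26%), the CRE TGACGTCA (1.85%) and the ETS motif CCGGAAG (10.3%). A single sequence can match more than 1 of the IRF, ETS-IRF and ETS motifs. None of these letters occur in the CD44, ITGA4 and ITGB7 windows, which describes the windows and nothing else. Among the genes not printed, 1 of 3 ICAM3 starts holds GGAAGGTCC from base -7 to base 2, and 1 of 2 ITGB1 starts holds TATAAA from base -100 to base -95. The ICAM1, CD44 and ITGA4 windows are GC-rich, with 64.7%, 63.3% and 72.3% G or C and 24, 18 and 31 CpG dinucleotides. The ITGB7 window has 51.7% G or C and 4 CpG.

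The first question was which adhesion transcripts moved with each compound against its own DMSO. ITGAL is counted apart, because it passed the filter only through its DMSO libraries. With SGC-CBP30, 3 of the other 8 tested genes fell (SELPLG, CD44 and ICAM1) and none rose, where a call needs an adjusted p under 0.05 in limma and a change of at least 1.5-fold. Counting ITGAL makes 4 of 9 lower. Among all genes tested, 3.79% were called lower and 3.47% higher. Of the calls over all genes 47.8% were thus higher, which became 32.5% when libraries were scaled to a common median and 32.4% after quantile normalization. By the adjusted p alone, and by an unadjusted p under 0.05 in limma, 5 of the 8 were lower and none higher, where the adjusted p alone took 14.8% of all genes as lower and 25.6% as higher. The median log2 fold change was -0.47 for the 8 genes and -0.57 with ITGAL, beside 0.07 over all genes tested.

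With CPI203, 4 of the 8 genes other than ITGAL fell (SELPLG, ICAM1, ITGA4 and ICAM2) and 2 rose (CD44 and ICAM3). With ITGAL, 5 of 9 were called lower. Among all genes 14.4% were called lower and 13.4% higher. By the adjusted p alone 4 of the 8 were lower and 3 higher, against 33.1% and 31.1% of all genes. The median was -0.41 for the 8 genes and -0.86 with ITGAL, beside -0.01 over all genes tested. For 2 libraries against 2, the smallest two-sided p that exact permutation allows for 1 gene is 0.333, so the tests rest on the limma fit across all genes.

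**Figure D2:**
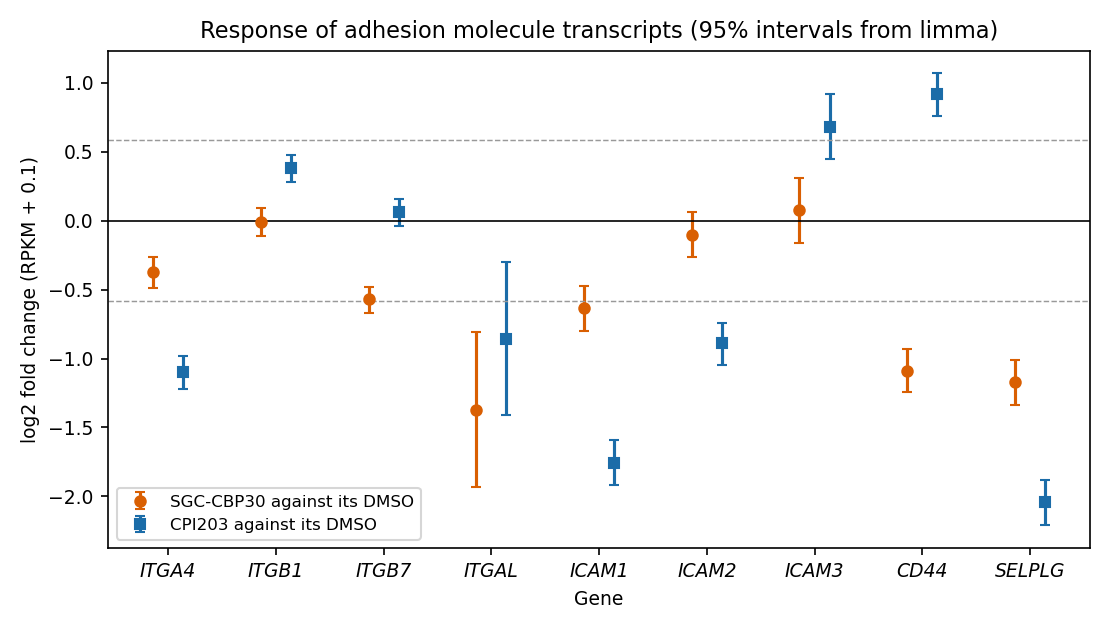
Log2 fold change of RPKM + 0.1 (vertical axis) against the matching DMSO libraries for the 9 tested adhesion genes (horizontal axis), with 95% intervals from limma; dashed lines mark 1.5-fold. SELPLG, ICAM1, ITGA4 and ITGAL lie below 0 with both compounds, and CD44 lies at -1.09 with SGC-CBP30 and at 0.92 with CPI203.

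ITGA4, the α4 chain (ENSG00000115232, hg19 chr2:182321929-182400914), fell with CPI203. Its level was 50 and 53.3 RPKM in DMSO and 23.4 and 24.6 RPKM with CPI203, which left it at 0.465 of the DMSO level. The log2 fold change was -1.10 (95% interval -1.22 to -0.98, limma adjusted p = 1.3e-07). With SGC-CBP30 the level was 35.9 and 35.3 RPKM beside 47.8 and 44.6 RPKM in DMSO. The groups did not overlap, and the log2 fold change of -0.37 (-0.49 to -0.26, limma adjusted p = 0.000589) was under 1.5-fold.

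ITGB1, the β1 chain that completes VLA-4 (ENSG00000150093, hg19 chr10:33189247-33294720), did not follow its partner. With CPI203 it measured 56.8 and 57.1 RPKM, above 42.8 and 44.6 RPKM in DMSO, a log2 fold change of 0.38 (0.28 to 0.48, limma adjusted p = 5.14e-05) that was under 1.5-fold. With SGC-CBP30 the libraries, at 40.7 and 43.2 RPKM, overlapped with DMSO at 43.1 and 41.5 RPKM. The log2 fold change there was -0.01 (-0.11 to 0.09, limma adjusted p = 0.864), and its sign turned to 0.02 without DMSO replicate 1 and to 0.03 without SGC-CBP30 replicate 1. In RPKM, the ratio of ITGB1 to ITGA4 was 0.855 and 0.837 in DMSO and 2.43 and 2.32 with CPI203. With SGC-CBP30 it was 1.13 and 1.22, beside 0.903 and 0.929 in DMSO.

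ITGB7, the β7 chain (ENSG00000139626, hg19 chr12:53585102-53601091), was lower with SGC-CBP30, just short of the fold required. It measured 388 and 361 RPKM with SGC-CBP30 and 539 and 577 RPKM in DMSO, without overlap. The log2 fold change was -0.57 (-0.67 to -0.48, limma adjusted p = 1.88e-05), and 1.5-fold is 0.585 on that scale. It passed without DMSO replicate 1 (-0.62), without SGC-CBP30 replicate 1 (-0.63) and when libraries were scaled to a common median (-0.65). It was further from passing after quantile normalization (-0.40), against all 4 DMSO libraries (-0.30), without DMSO replicate 2 (-0.53) and without SGC-CBP30 replicate 2 (-0.52). ITGB7 is among the genes that the study itself picked from these libraries for a heat map of IRF4 target genes, so its direction is not independent evidence. The study's rule for that figure was at least 1.5-fold and p under 0.05 with SGC-CBP30 but not with CPI203. The fit used here put ITGB7 just under that fold.

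With CPI203, ITGB7 was not called, at 396 and 397 RPKM beside 389 and 370 RPKM in DMSO (log2 fold change 0.06, -0.04 to 0.16, limma adjusted p = 0.235). The DMSO levels of the 2 experiments differed more than that: the CPI203 DMSO mean of 379 ± 13.8 RPKM was 0.680 of the other DMSO mean and close to the SGC-CBP30 mean of 375 ± 19.4 RPKM. Against the CPI203 experiment's DMSO, a comparison chosen after seeing the data, the log2 fold change with SGC-CBP30 was -0.02 (limma adjusted p = 0.754). Against the SGC-CBP30 experiment's DMSO, that with CPI203 turned to -0.49 (limma adjusted p = 5.07e-06), and it was -0.21 against all 4 DMSO libraries. What sets the DMSO libraries apart was not tested.

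ITGAL, the αL chain of LFA-1 (ENSG00000005844, hg19 chr16:30483979-30534506), was expressed at the edge of the filter, with a mean of 1.07 RPKM over the 8 libraries that its DMSO values carried past 1. It measured 2.06 and 1.43 RPKM in DMSO and 0.705 and 0.513 RPKM with SGC-CBP30. In the other experiment it measured 1.34 and 1.19 RPKM in DMSO and 0.709 and 0.599 RPKM with CPI203. Its log2 fold change was -1.37 with SGC-CBP30 (-1.93 to -0.81, limma adjusted p = 0.00224) and -0.86 with CPI203 (-1.41 to -0.30, limma adjusted p = 0.0121). A gene that enters the test through its DMSO values is likely to come out lower with treatment, so these calls are given as a description. With no filter the limma adjusted p was 0.023 and 0.0496. The call with CPI203 was lost without CPI203 replicate 2 (-0.75, limma adjusted p = 0.059) and without DMSO replicate 1 of that experiment (-0.78, limma adjusted p = 0.0649), and it was -0.45 with a pseudocount of 1 and -0.59 after quantile normalization. The summed level of 6 T cell markers was 0.139 to 0.429 RPKM in DMSO and 0.118 to 0.222 with SGC-CBP30, and 1.56 to 1.85 in DMSO and 1.64 to 2.19 with CPI203, so it overlapped within both experiments.

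ITGB2, the β2 chain without which ITGAL forms no LFA-1 (ENSG00000160255, hg19 chr21:46305868-46351904), was not tested. Its values were 0.0511 and 0 RPKM in DMSO and 0 and 0.0100 with SGC-CBP30, and 0.0622 and 0.0534 in DMSO and 0.0148 and 0.181 with CPI203. The groups overlapped in both experiments, and a value of 0 says only that the gene is listed at 0.

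ICAM1, an inducible LFA-1 ligand (ENSG00000090339, hg19 chr19:10381511-10397291), fell with both compounds. With CPI203 it went from 33.4 and 30.9 RPKM in DMSO to 8.84 and 10.0 RPKM, or 0.294 of the DMSO level (log2 fold change -1.76, -1.92 to -1.59, limma adjusted p = 5.96e-08). With SGC-CBP30 it went from 40.6 and 44.0 RPKM to 28.1 and 26.4 RPKM, or 0.644 of the DMSO level (-0.63, -0.80 to -0.47, limma adjusted p = 0.000205). The smaller fall lay near the fold required and was under it without DMSO replicate 2 (-0.57). Against the CPI203 experiment's DMSO, chosen after seeing the data, it was -0.24, and against all 4 DMSO libraries -0.43.

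ICAM2, a constitutive ligand of LFA-1 (ENSG00000108622, hg19 chr17:62079954-62097994), fell with CPI203. It measured 31.9 and 28.4 RPKM in DMSO and 15.9 and 16.4 RPKM with CPI203 (log2 fold change -0.89, -1.05 to -0.74, limma adjusted p = 2.6e-06). With SGC-CBP30, values of 29 and 26.1 RPKM lay below 29.1 and 29.9 RPKM in DMSO, 1 of them only just, and the log2 fold change of -0.10 (-0.26 to 0.06, limma adjusted p = 0.281) did not pass. Its locus overlaps C17orf72, which reached at most 1.70 RPKM.

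ICAM3, the leukocyte ICAM (ENSG00000076662, hg19 chr19:10444452-10450499), moved the other way. It rose from 2.88 and 2.91 RPKM in DMSO to 4.58 and 4.84 RPKM with CPI203 (log2 fold change 0.68, 0.45 to 0.92, limma adjusted p = 0.00029), which was under 1.5-fold at 0.55 with a pseudocount of 1. With SGC-CBP30 it measured 3.01 and 3.11 RPKM beside 2.79 and 3.01 RPKM in DMSO, a log2 fold change of 0.08 (-0.16 to 0.31, limma adjusted p = 0.603). Thus with CPI203, 2 ICAM transcripts fell and 1 rose, and with SGC-CBP30 only ICAM1 of the 3 passed.

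CD44 (ENSG00000026508, hg19 chr11:35160417-35253949), the receptor for hyaluronan in the marrow matrix, was the only one of the 9 genes called in opposite directions. It fell from 49.3 and 49.2 RPKM to 24.9 and 21.4 RPKM with SGC-CBP30, or 0.470 of the DMSO level (log2 fold change -1.09, -1.24 to -0.93, limma adjusted p = 5.19e-06). It rose from 28.9 and 30.9 RPKM to 58.0 and 55.1 RPKM with CPI203, or 1.89 times the DMSO level (0.92, 0.76 to 1.07, limma adjusted p = 2.08e-06). Neither pair of treated libraries overlapped with its DMSO.

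The size of both CD44 changes depended on the control, since the DMSO mean of the CPI203 experiment, 29.9 ± 1.39 RPKM, was 0.607 of that of the SGC-CBP30 experiment. With the DMSO libraries exchanged between the experiments, a comparison chosen after seeing the data, the log2 fold changes kept their signs at -0.37 with SGC-CBP30 and 0.20 with CPI203 and were both under 1.5-fold. Against all 4 DMSO libraries the rise with CPI203 was 0.56, also under 1.5-fold. Taken directly, the 2 treated groups stood at 23.2 ± 2.46 and 56.5 ± 2.02 RPKM.

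SELPLG (ENSG00000110876, hg19 chr12:109015686-109027735), which encodes PSGL-1, the ligand for P-selectin on endothelium, fell the most of the 9 genes with CPI203 and second after ITGAL with SGC-CBP30. With SGC-CBP30 it went from 64.4 and 69.0 RPKM to 32.0 and 27.2 RPKM, a 2.25-fold fall (log2 fold change -1.17, -1.34 to -1.01, limma adjusted p = 5.13e-06). With CPI203 it went from 70.9 and 66.1 RPKM to 16.5 and 16.6 RPKM, a 4.14-fold fall (-2.04, -2.21 to -1.88, limma adjusted p = 2.74e-08). Here the DMSO libraries of the 2 experiments overlapped, and every library with either compound lay below every DMSO library. The locus overlaps RP11-689B22.2, which reached at most 2.49 RPKM.

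**Figure D3:**
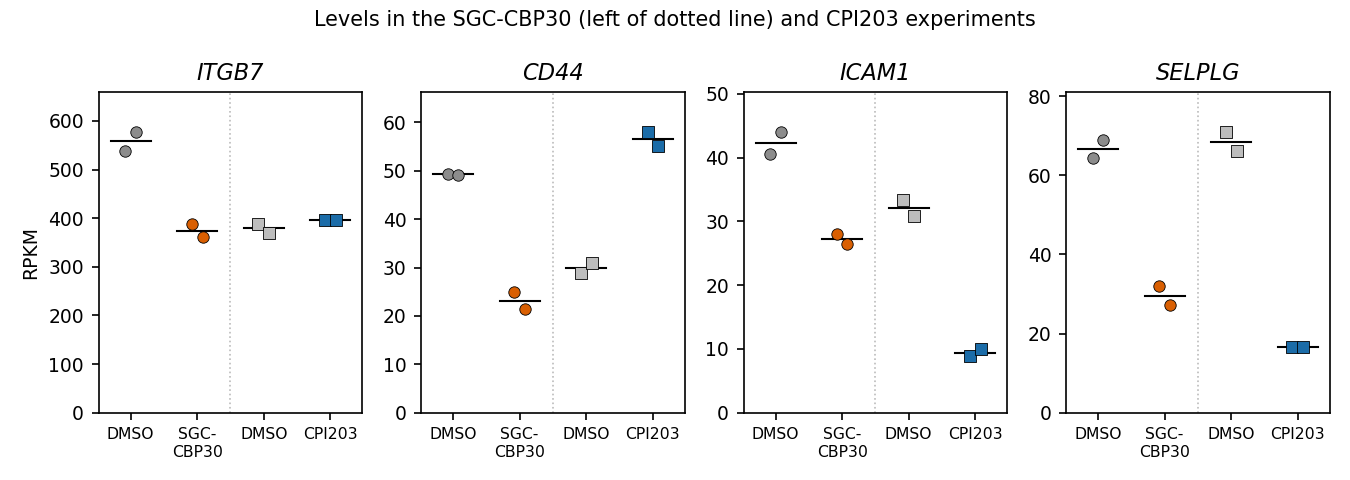
RPKM (vertical axes, each from 0) of ITGB7, CD44, ICAM1 and SELPLG in the 4 groups of 2 libraries, with points for libraries and lines for means; the SGC-CBP30 experiment is left of the dotted line and the CPI203 experiment right of it. The DMSO levels of ITGB7, CD44 and ICAM1 in the CPI203 experiment are 0.680, 0.607 and 0.760 of those in the other, whereas for SELPLG the ratio is 1.03.

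The second question was whether the effects of the compounds, each against its own DMSO, differed from each other. The doses were not matched, so this compares the treatments as given. The difference passed an adjusted p of 0.05 for 8 of the 9 genes, beside 50.3% of all genes tested. It was negative for 4, meaning a lower value with SGC-CBP30 than with CPI203, and positive for 4, where 21.0% of all genes were negative and 29.3% positive.

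CD44 differed the most, with a difference in log2 fold change of -2.01 (-2.22 to -1.79, limma adjusted p = 6.2e-07). ITGB7 (-0.64, -0.78 to -0.50, limma adjusted p = 2.98e-05), ICAM3 (-0.61, -0.94 to -0.27, limma adjusted p = 0.00743) and ITGB1 (-0.39, -0.54 to -0.25, limma adjusted p = 0.000759) had the same sign. For ITGB7 the treated libraries of the 2 experiments, compared directly, differed by -0.08 (limma adjusted p = 0.123), so that difference rested on the DMSO libraries.

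The falls of ICAM1 (difference 1.13, 0.89 to 1.36, limma adjusted p = 2.06e-05) and SELPLG (0.87, 0.64 to 1.10, limma adjusted p = 0.000105) were larger with CPI203 than with SGC-CBP30. The difference was also positive for ICAM2 (0.79, 0.57 to 1.01, limma adjusted p = 0.000127) and ITGA4 (0.73, 0.56 to 0.89, limma adjusted p = 3.66e-05), neither of which was called with SGC-CBP30. For ITGAL the difference of -0.51 did not pass (limma adjusted p = 0.254), and its interval from -1.30 to 0.28 leaves room for an effect over 2-fold stronger with SGC-CBP30. After quantile normalization it was -0.97 (limma adjusted p = 0.0423).

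The genes whose profile was nearest to that of each called gene were taken over the 8 libraries among 9457 genes outside the lists with a mean of at least 5 RPKM. Nearness is the Euclidean distance between centred log2 profiles, which describes these libraries only. Nearest to CD44 were MAF (distance 0.37), a leucine zipper transcription factor, and AHNAK (0.42), a large scaffold protein. MAF had log2 fold changes of -1.03 with SGC-CBP30 and 0.59 with CPI203, and AHNAK of -1.10 and 0.71.

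Nearest to SELPLG were DEPTOR (0.28), an mTOR inhibitor, and RCSD1 (0.55). Nearest to ICAM1 were LRRC61 (0.27) and SLC17A9 (0.30), a vesicular nucleotide transporter. UBE2J1 (0.18), a ubiquitin-conjugating enzyme of the endoplasmic reticulum, and SLC25A13 (0.19), a mitochondrial carrier, lay nearest to ITGA4. ESRRA (0.13) and PHF23 (0.15) lay nearest to ICAM2, ECE1 (0.11) and DUSP16 (0.12) to ICAM3, and BEST3 (0.54) and PLEKHG4B (0.62) to ITGAL.

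The other genes of adhesion were followed through 6 lists. Their counts can be read beside the shares of all genes tested that were called. For SGC-CBP30, falls made up 3.79% and rises 3.47% of all genes. For CPI203, falls made up 14.4% and rises 13.4%. Whether any list exceeded these shares was not tested. Of 21 further integrin subunits, 8 were tested. With SGC-CBP30, 1 fell and 1 rose (median log2 fold change -0.04), and with CPI203, 2 fell and 2 rose (median -0.45). The β5 chain ITGB5 fell with SGC-CBP30 from 125 RPKM in both DMSO libraries to 65.1 and 59.5 RPKM (log2 fold change -1.0, SE 0.05, limma adjusted p = 1.48e-06). The DMSO level in the CPI203 experiment was 72.6 and 68.9 RPKM, and against it the value with SGC-CBP30 was -0.18, under 1.5-fold. ITGB5 was also lower with CPI203, at 48.7 and 46 RPKM (-0.58, SE 0.05, limma adjusted p = 6.21e-06), just short of the fold required. Its usual partner ITGAV rose with SGC-CBP30 (0.82, SE 0.15, limma adjusted p = 0.00264) and with CPI203 (1.12, SE 0.15, limma adjusted p = 0.00013), from a low level of 1.08 to 1.98 RPKM in the 4 DMSO libraries. The rise with SGC-CBP30 was not called against the CPI203 experiment's DMSO (0.15), against all 4 DMSO libraries (0.49) or with a pseudocount of 1 (0.54).

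With CPI203 the α8 chain ITGA8 fell from 48.0 and 50.9 to 31.5 and 30.5 RPKM (-0.67, SE 0.05, limma adjusted p = 1.3e-06), which was -0.52 against the other experiment's DMSO. ITGB4 was called lower (-1.16, SE 0.29, limma adjusted p = 0.00621), but its mean of 1.08 RPKM passed the filter only through the SGC-CBP30 experiment, and it measured 0.589 and 1.09 RPKM in DMSO and 0.257 and 0.363 with CPI203. That call was lost without DMSO replicate 2 (-0.76), after quantile normalization (-0.71) and with a pseudocount of 1 (-0.48). ITGA7 rose (0.59, SE 0.18, limma adjusted p = 0.0164), just past the fold required, and kept its call under only 11 of 18 alternatives, with 0.47 without CPI203 replicate 2, 0.43 without DMSO replicate 2 and 0.08 against the other experiment's DMSO.

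Of 36 genes that activate integrins or link them to the cytoskeleton, 28 were tested. With SGC-CBP30, 5 fell and none rose by limma and the fold required, while 7 were higher at an unadjusted p under 0.05 (median -0.06). With CPI203, 4 fell and 8 rose (median 0.28). PTK2B, the kinase PYK2, fell from 191 RPKM in both DMSO libraries to 91.1 and 86.6 RPKM with SGC-CBP30 (-1.10, SE 0.04, limma adjusted p = 3.59e-07). With CPI203 it fell too, from 172 and 166 to 90.1 and 96.6 RPKM (-0.86, limma adjusted p = 1.54e-07). RASGRP2, an exchange factor for RAP1, also fell with SGC-CBP30 (-1.70, SE 0.22, limma adjusted p = 0.000389), a value that was -0.23 (limma adjusted p = 0.429) against the CPI203 experiment's DMSO.

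With CPI203, the RAP1 effectors RASSF5 (-1.27, SE 0.06, limma adjusted p = 1.15e-07) and APBB1IP (-1.02, SE 0.04, limma adjusted p = 3.71e-08) fell. APBB1IP, known as RIAM, went from 46.7 and 45.8 to 22.9 and 22.7 RPKM. Both also fell with SGC-CBP30, with log2 fold changes of -0.81 for RASSF5 (limma adjusted p = 1.37e-05) and -0.80 for APBB1IP (limma adjusted p = 1.14e-06). Against the CPI203 experiment's DMSO these values were -0.45 and -0.30, under 1.5-fold, and APBB1IP was -0.55 against all 4 DMSO libraries. Vinculin, the product of VCL, links talin to actin, and VCL rose from 7.93 and 8.55 to 22.5 and 22.3 RPKM (1.43, SE 0.06, limma adjusted p = 9.35e-08). FERMT2, which encodes the integrin activator kindlin-2, rose as well (1.41, SE 0.14, limma adjusted p = 1.44e-05). The effects of the compounds differed for 21 of the 28 genes, 17 of them negative and 4 positive, beside the 21.0% and 29.3% of all genes given above.

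Of 24 other adhesion genes, including counter-receptors, 15 were tested, with F11R present under 2 identifiers. With SGC-CBP30, 4 fell and 2 rose (median -0.14), and with CPI203, 4 fell and 2 rose (median -0.09). CD48, a ligand of the SLAM family, fell with both, from 54.4 and 57.0 to 20.4 and 19.5 RPKM with SGC-CBP30 (-1.48, SE 0.05, limma adjusted p = 1.75e-07). With CPI203 it went from 46.1 and 43.8 to 12.6 and 12.5 RPKM (-1.83, SE 0.05, limma adjusted p = 5.66e-09). Syndecan-1, the plasma cell marker CD138 encoded by SDC1, fell with CPI203 from 63.6 and 57.5 to 19.5 and 21.6 RPKM (-1.55, SE 0.08, limma adjusted p = 1.42e-07).

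FN1, which encodes the VLA-4 ligand fibronectin, fell with SGC-CBP30 from 8.47 and 8.76 to 4.0 and 3.49 RPKM (-1.18, SE 0.17, limma adjusted p = 0.000649). Against the CPI203 experiment's DMSO it was -0.08. The receptors' vascular ligands were nearly absent from these cells: VCAM1 reached at most 0.110 RPKM, MADCAM1 at most 0.264, and SELP was listed at 0 in all 8 libraries. F11R (ENSG00000158769), a junctional adhesion molecule, rose with SGC-CBP30 (0.93, SE 0.12, limma adjusted p = 0.000347). Against the CPI203 experiment's DMSO it was 0.30 (limma adjusted p = 0.0618). The second F11R entry (ENSG00000270149) overlaps the first on chromosome 1, so how reads were shared between them is uncertain. That entry was called higher with SGC-CBP30 (0.78, SE 0.23, limma adjusted p = 0.0251) and with CPI203 (0.85, SE 0.23, limma adjusted p = 0.00934). Those calls were kept under 14 and 16 of 18 alternatives. The 2 called rises with SGC-CBP30 in this list are these 2 entries. ALCAM, a homotypic adhesion molecule, rose with CPI203 (0.62, SE 0.14, limma adjusted p = 0.0034), a call that was lost without CPI203 replicate 2 (0.57) or DMSO replicate 1 (0.45) and was 0.29 against the other experiment's DMSO. With SGC-CBP30 it fell, from 3.85 and 3.31 to 2.0 and 2.09 RPKM (-0.78, limma adjusted p = 0.00228), which became -0.45 against the CPI203 experiment's DMSO.

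PSGL-1 binds selectins only after glycosylation and sulfation, and of 11 enzymes of these steps 10 were tested. With SGC-CBP30, 3 fell and none rose by limma and the fold required, while 4 were higher at an unadjusted p under 0.05 (median -0.23), and with CPI203, 2 fell and 2 rose (median 0.41). GCNT1, which builds the core 2 branch, fell with SGC-CBP30 from 7.83 and 7.48 to 3.45 and 3.24 RPKM (-1.17, SE 0.10, limma adjusted p = 2.74e-05), and was -0.53 against the CPI203 experiment's DMSO. So did TPST2, a tyrosine sulfotransferase (-0.71, SE 0.09, limma adjusted p = 0.0003), though not against the CPI203 experiment's DMSO (-0.09).

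With CPI203 the sialyltransferases differed in direction. ST3GAL4 (-0.97, SE 0.07, limma adjusted p = 1.76e-06) and ST3GAL6 (-0.91, SE 0.05, limma adjusted p = 1.61e-07) fell, and ST3GAL3 rose (1.05, SE 0.09, limma adjusted p = 4.49e-06). ST3GAL6 also fell with SGC-CBP30 (-0.69, limma adjusted p = 6.43e-06). Its DMSO level was 139 and 150 RPKM in the CPI203 experiment and 86.6 and 89.5 RPKM in the other, and against the latter the value with CPI203 was -0.20, and -0.56 against all 4 DMSO libraries. C1GALT1, which makes the core 1 structure, rose (0.69, SE 0.07, limma adjusted p = 1.33e-05). FUT7, the fucosyltransferase that completes the selectin-binding glycan in leukocytes, was listed at 0 in all 8 libraries, and FUT4 measured 2.24 to 3.15 RPKM.

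Of 16 partners of CD44, enzymes of hyaluronan and shedding proteases, 8 were tested. With SGC-CBP30 none was called by limma with the fold required, while 2 were lower and 2 higher by the adjusted and by the unadjusted p (median 0.03). With CPI203, 1 fell and 3 rose (median 0.15). EZR, which encodes ezrin and links CD44 to actin, rose from 82.1 and 78.2 to 149 and 151 RPKM with CPI203 (0.90, SE 0.04, limma adjusted p = 5.35e-08). The sheddase ADAM17 rose just past the fold required (0.60, SE 0.06, limma adjusted p = 1.81e-05) and was under it without CPI203 replicate 1 (0.58) or DMSO replicate 2 (0.55). HYAL3 fell (-0.73, SE 0.13, limma adjusted p = 0.000843), which was -0.39 against the other experiment's DMSO and -0.56 against all 4 DMSO libraries and with a pseudocount of 1.

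Among 7 tetraspanins, which organise integrins in the membrane, 4 were tested. With SGC-CBP30, 1 fell and none rose by limma and the fold required, 1 being higher at an unadjusted p under 0.05 (median -0.38). With CPI203 none was called, 2 being higher and none lower at an unadjusted p under 0.05 in limma (median 0.05). The one that fell was CD81, from 5.48 and 6.56 to 1.45 and 1.13 RPKM (-2.14, SE 0.22, limma adjusted p = 9.15e-05). Its level in the CPI203 experiment's DMSO was 1.06 and 1.43 RPKM, and against these the value with SGC-CBP30 was 0.05.

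**Figure D4:**
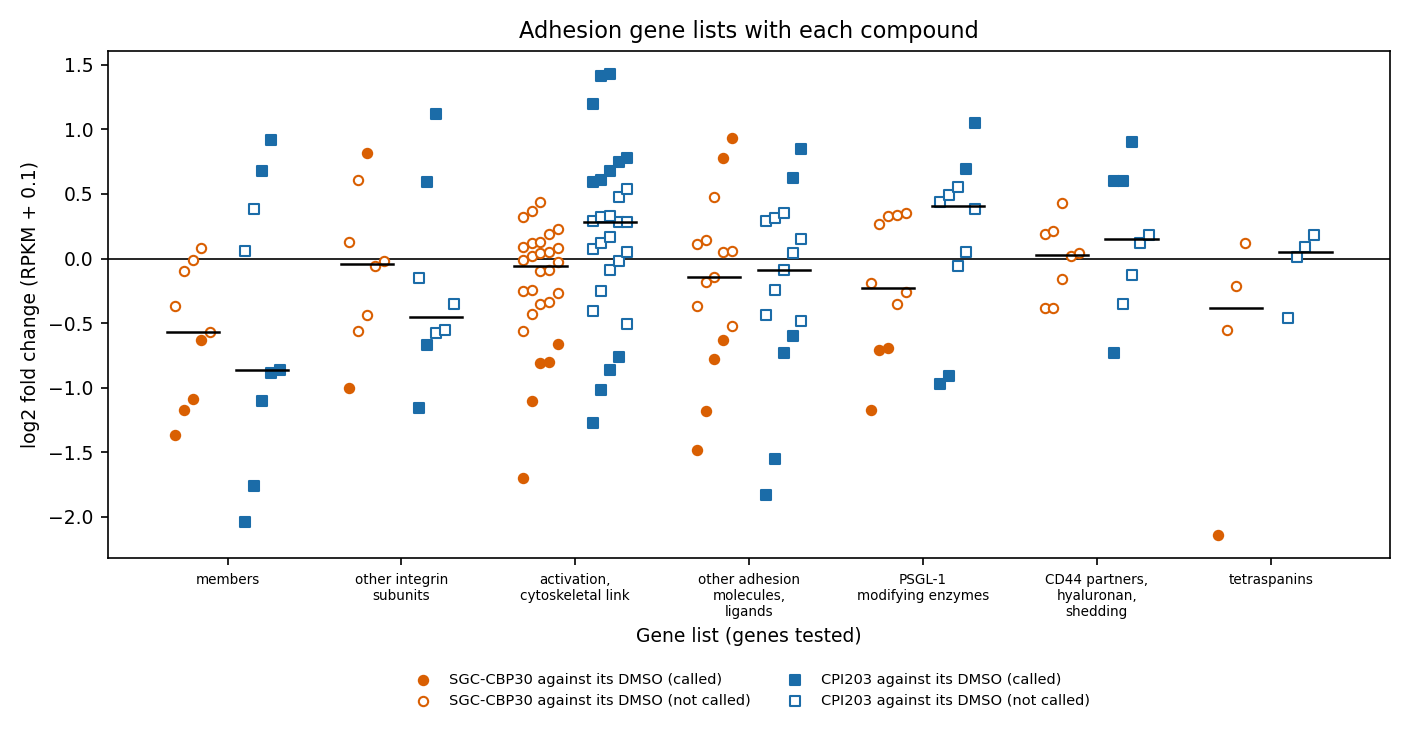
Log2 fold change of RPKM + 0.1 (vertical axis) of every tested gene in the 7 gene lists (horizontal axis), for SGC-CBP30 (circles) and CPI203 (squares) against the matching DMSO; filled symbols passed the adjusted p and 1.5-fold, and lines are medians. The 9 adhesion genes, ITGAL included, have medians of -0.57 and -0.86. Without ITGAL, which passed the filter only through its DMSO libraries, the medians are -0.47 and -0.41. Of the 28 genes in the integrin activation list, 8 rose with CPI203 and none with SGC-CBP30, beside 13.4% and 3.47% of all genes tested.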

How the data were processed

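Per the labels, RNA of LP-1 cells was purified on columns with DNase digestion, and 2 μg was sent to a service provider for library preparation and sequencing. The submitters' processing notes name TopHat 1.4.1, Cufflinks and build hg19. The values the authors deposited are RPKM. The annotation release and the use of strand are not given in the sources used here. Another 24 columns of the table belong to none of these samples and were not used. Values of 0 and positive values near 0 both occur, so low and overlapping genes are uncertain. Depth was estimated from the steps of low values of genes with 1 exon, of which 63.2% to 76.9% per library were whole reads within 0.1, too few for a count test. Deposited starts count from 0 and are given here from 1.

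Genes averaging 1 RPKM or more were tested on log2(RPKM + 0.1), a scale that understates changes of low genes, after 27 with a missing value were left out. limma 3.58.1 in R 4.3.3 was fitted with 4 group means to all 8 libraries (lmFit, contrasts, eBayes with an intensity trend, 4 residual and 5.48 prior degrees of freedom), with Benjamini-Hochberg adjustment over the 14732 genes. The spread is thus shared by all groups. Calls needed an adjusted p under 0.05 and 1.5-fold, and for the difference between compounds an adjusted p under 0.05. The fit was tested on simulated data. Genes named are the 10 adhesion genes, of each list and compound the 2 largest called increases and decreases without overlap with DMSO, and the 2 genes nearest in profile to each called adhesion gene. A gene named for 1 compound is also given for the other where it was called there, and ITGB5 is given with CPI203 though not called. Overlapping loci, C17orf72, RP11-689B22.2, FUT4, FUT7, VCAM1, MADCAM1 and SELP were named after their values were seen. The members and lists were chosen with earlier results of these data known. Promoters and motifs came from RefSeq and were searched with Python 3.11.15 (pandas 2.3.3, numpy 2.4.6, matplotlib 3.10.9). Alternatives tried were other controls (all 4 DMSO libraries, or those of the other experiment), a replicate block, crossed pairs, separate fits, no intensity trend, other folds, each library left out, scaling to a common median, quantiles, no filter or one at 5 RPKM, and a pseudocount of 1. Protein levels were not analysed here.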

Additional observations from a re-analysis of the deposited data

How the results depend on the processing

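The count of called adhesion genes with SGC-CBP30 was 4, and 2 (ITGAL and SELPLG) against the other experiment's DMSO, a control chosen after seeing the data. With CPI203 the 7 calls became 3 (ITGA4, ICAM1 and SELPLG) at 2-fold, and the 8 differences between the compounds became 2 (CD44 and ICAM1) at that fold. Without ITGAL, left out after seeing the data, the counts were 3, 6 and 8. Leaving out each library in turn gave 3 to 5, 6 to 7 and 8 genes. With both DMSO pairs as alternatives, values turned in sign for ITGB7 with CPI203 (-0.49 with the other pair and -0.21 with all 4 DMSO libraries) and for CD81 with SGC-CBP30 (0.05), and ITGB1 with SGC-CBP30, which did not pass, ran from -0.05 to 0.03 with a library left out, turning to 0.02 and 0.03 without DMSO or SGC-CBP30 replicate 1. The cause was not tested. SELPLG kept its calls under each of 19 alternatives with either compound. Replicate numbers are shared by label alone: the correlation of same-numbered deviations over 8298 genes was -0.1721 and -0.0395. With the replicate number as a block the counts were 4, 7 and 8, and crossing the pairs in the SGC-CBP30 experiment, chosen after seeing the data, gave 4, 7 and 8. Over all genes, a mean of at least 5 RPKM left 10544 of the 14732 genes tested. It gave 505 calls for SGC-CBP30 in place of 1070 (0.472 of them) and 2590 for CPI203 in place of 4095 (0.632 of them). The calls thus fell by more than the genes tested did. A pseudocount of 1 gave 667 for SGC-CBP30. ITGAL and ITGB2 lie near or under 1 RPKM, where values are less certain, and the part of depth in their values was not tested.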

Other observations

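In RPKM, the ratio of the β7 to the α4 transcript was 16.9 and 16.1 with CPI203 and 7.78 and 6.94 in its DMSO. With SGC-CBP30 it was 10.8 and 10.2, beside 11.3 and 12.9 in DMSO. In every library ITGB7 exceeded ITGA4, an α chain that pairs with β7, and ITGB1, the other β chain that pairs with α4. Other α chains were not compared with ITGB7 in this way. CD44 was below SELPLG in all 4 DMSO libraries and in both SGC-CBP30 libraries, with ratios of 0.408 to 0.787, and above it with CPI203, with ratios of 3.52 and 3.31. These ratios were not tested.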
